A study of Mus musculus with 4 samples.

Results

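Caveolins, ferlins and EHD proteins shape, recycle and mend the surface membrane of muscle cells, and 8 of their genes were followed here: the caveolins Cav1, Cav2 and Cav3, the ferlins Dysf and Myof, and the EHD genes Ehd1, Ehd2 and Ehd4. They were found by gene symbol among 52636 gene rows, and each symbol had 1 row. RNA had been sequenced from C2C12, an established mouse myoblast line whose cells can fuse into multinucleated myotubes. The 2 sesaminol libraries came from cells that received sesaminol, a sesame lignan, at 50 µM, and the 2 control libraries from cells that did not, and both groups were kept for up to 8 days in adipogenic medium. Whether the replicates were separate cultures is not stated, so the p-values reflect the spread between these particular libraries, and that spread may be technical.

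As background, caveolins are hairpin membrane proteins that, with the cavin coat proteins, build the small flask-shaped pits of the plasma membrane called caveolae. Caveolin 1 is the main form in most cells, caveolin 2 is its partner and depends on it to leave the Golgi, and caveolin 3 replaces them in mature muscle, where it is also needed for normal transverse tubules. Ferlins are large proteins with many C2 domains that bind membranes in response to calcium: dysferlin reseals tears in the fibre membrane, and its loss causes muscular dystrophy, while myoferlin acts in myoblast fusion. EHD proteins are dynamin-like ATPases that bend membranes, with EHD2 at the caveola neck and EHD1 and EHD4 on recycling endosomes. EHD1 and EHD2 are also known to bind myoferlin.

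The promoter windows of the 3 genes that were called and of Cav1, the uncalled neighbour of Cav2, show what lies just upstream of the start sites. Each is the 250 bases before a RefSeq start site (build GRCm38.p6), all on the plus strand. Dysf and Cav1 each had a second window, which is not shown. The capitals mark CAGCTG, a form of the E-box, the hexamers to which myogenic factors bind, and it reads the same on either strand. A second E-box form, CACCTG, was searched for on both strands as well. Other E-box forms were not searched for and are not marked.
Cav3, chr6:112459255-112459504: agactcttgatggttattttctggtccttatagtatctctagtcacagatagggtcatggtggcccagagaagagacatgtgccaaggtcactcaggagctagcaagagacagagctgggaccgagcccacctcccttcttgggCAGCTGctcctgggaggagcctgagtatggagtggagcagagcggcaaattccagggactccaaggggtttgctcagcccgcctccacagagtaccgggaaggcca
Dysf, chr6:84008348-84008597: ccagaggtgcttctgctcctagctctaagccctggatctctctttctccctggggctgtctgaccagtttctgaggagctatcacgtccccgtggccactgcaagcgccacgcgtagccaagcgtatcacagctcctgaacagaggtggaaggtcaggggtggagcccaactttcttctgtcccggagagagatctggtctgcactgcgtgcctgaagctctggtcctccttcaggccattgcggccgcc
Cav2, chr6:17280935-17281184: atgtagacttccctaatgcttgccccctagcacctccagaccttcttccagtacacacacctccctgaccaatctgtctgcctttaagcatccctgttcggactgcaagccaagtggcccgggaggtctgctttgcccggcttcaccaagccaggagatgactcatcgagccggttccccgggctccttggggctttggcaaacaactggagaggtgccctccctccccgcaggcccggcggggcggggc
Cav1, chr6:17306085-17306334: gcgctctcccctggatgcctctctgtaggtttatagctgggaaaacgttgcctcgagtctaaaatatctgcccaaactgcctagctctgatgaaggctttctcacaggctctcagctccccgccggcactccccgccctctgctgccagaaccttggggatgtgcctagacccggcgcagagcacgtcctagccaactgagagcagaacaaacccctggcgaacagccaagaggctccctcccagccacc
In these letters Cav3 held CAGCTG, beginning at position -106 from its start site, and the other 3 windows shown held neither hexamer. Of all 32851 RefSeq windows of this length, 4271 held CAGCTG. The form CACCTG was in 17.2% of them. RefSeq gave windows for 7 of the 8 genes (none for Ehd1), 9 windows in all. Of these, 2 held CAGCTG (Cav3 and Ehd2, in Ehd2 at -204) and 1 held CACCTG (the second Cav1 window, at -158). The GC box GGGCGG, searched on both strands, was in 5 of the 9 windows and in 32.7% of all. Among those shown it was in Cav2 as written and in Cav1 as its reverse complement. The second Dysf window held 3 matches. TATAAA, searched on both strands, was in the Cav1 window shown, as its reverse complement, and in 12.4% of all. The TEAD hexamer CATTCC, also searched on both strands, was in 0 of the 9 windows (12.6% of all). A match is a string of letters and not a measured binding site.

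The libraries held 15807638 and 24362899 counts with sesaminol and 10283135 and 14083165 in controls. Sesaminol replicate 2 stood apart in its mitochondrial share, which was 1.44% (Wilson 95% bounds 1.44% and 1.45%) where the other 3 libraries had 2.95% to 3.36%. Each member is therefore also given without it. Such intervals cover counting error only. Values are CPM, counts per 1000000 counts of the library after TMM scaling, and tests are edgeR's quasi-likelihood test, adjusted by Benjamini-Hochberg over all 18998 genes tested. All 8 genes passed the filter on low counts. Of them, 1 rose, 2 fell and 5 did not pass at an adjusted p of 0.05. Over all genes tested, 2.72% rose and 3.24% fell, 5.95% in all. The groups did not overlap for 4 of the 8 genes, and for 47.0% of all genes tested. The median log2 fold change was -0.27 over the 8 genes and 0.02 over all genes.

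**Figure D1:**
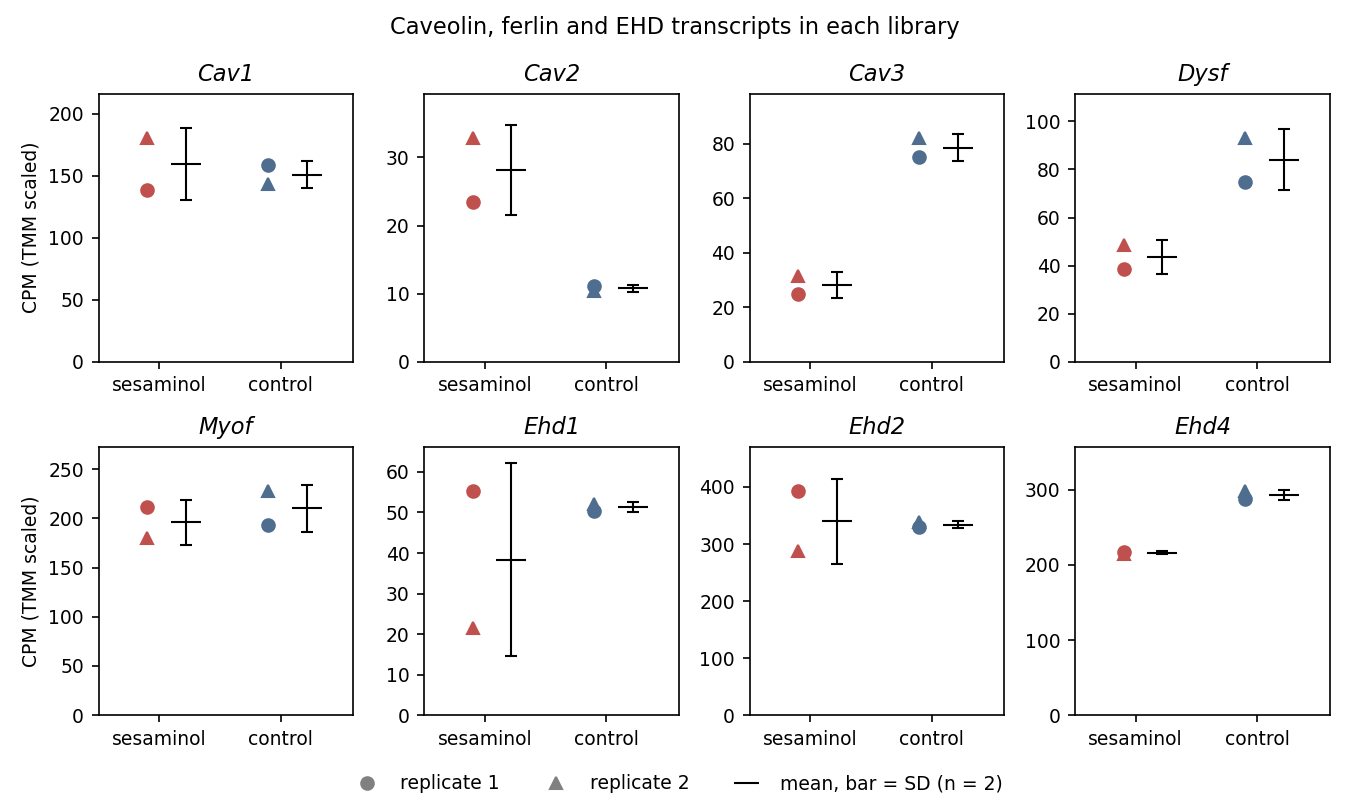
CPM (TMM scaled, linear axes from 0) of the 8 genes in each library, with sesaminol libraries in red and controls in blue, circles for replicate 1 and triangles for replicate 2, and the mean with its SD (n = 2) as black bars. Cav3 and Dysf stood lower and Cav2 higher in both sesaminol libraries, and the 2 sesaminol libraries were far apart for Ehd1.

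The caveolin genes moved in different directions: the muscle form fell with sesaminol, Cav2 rose and Cav1 did not pass. Cav3 (ENSMUSG00000062694, chromosome 6, 112459505 to 112472872, GRCm38), muscle caveolin, stood at 24.8 and 31.5 CPM in sesaminol libraries, against 75.2 and 82.1 CPM in controls. Both sesaminol libraries lay well below both controls. It fell to 28.1 ± 4.73 CPM with sesaminol, against 78.6 ± 4.89 CPM in controls (SD, n = 2 each), 2.79-fold lower, with a log2 fold change of -1.48 ± 0.18 (SE, edgeR adjusted p = 0.00239). It passed in each alternative fit that kept all 4 libraries (highest adjusted p 0.00635, edgeR with scaling to library size alone). With 1 library left out, its log2 fold change ran from -1.66 without sesaminol replicate 2 to -1.36 without sesaminol replicate 1. A group left with 1 library takes its spread from the other group, so a p-value of such a fit does not measure the spread of that group. A smaller share of fused cells and less Cav3 RNA per cell cannot be told apart in bulk RNA.

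Cav2 (ENSMUSG00000000058, chromosome 6, 17281185 to 17289115), the partner of caveolin 1, was the only member that rose. It had 350 and 880 reads with sesaminol and 112 and 143 reads in controls, which is 23.4 and 32.8 CPM with sesaminol and 11.1 and 10.4 CPM in controls. Both sesaminol libraries lay above both controls, and the sesaminol libraries differed more from each other than the controls did. The mean was 28.1 ± 6.63 CPM with sesaminol and 10.8 ± 0.480 CPM in controls, 2.62-fold higher, with a log2 fold change of 1.39 ± 0.22 (SE, edgeR adjusted p = 0.00807). It passed in each alternative fit that kept all 4 libraries (highest adjusted p 0.0203, by limma-voom). With 1 library left out, its log2 fold change ran from 1.13 without sesaminol replicate 2 to 1.57 without sesaminol replicate 1.

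Cav1 (ENSMUSG00000007655, chromosome 6, 17306335 to 17341452) lies 17.2 kb downstream of Cav2 on the same strand. It stood at 139 and 180 CPM with sesaminol and 158.5 and 143 CPM in controls. The control values lay between the sesaminol values. Its log2 fold change was 0.08 ± 0.19 (SE, edgeR adjusted p = 0.903), with a 95% interval from -0.34 to 0.51, and it was -0.11 without sesaminol replicate 2. Changes as large as those of Cav2 and Cav3 lie outside that interval.

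The Cav1 and Cav2 counts also recur in an antisense gene. Gm15581 (chromosome 6, 17206823 to 17385604, minus strand) spans both genes, and its annotated exons share 0 bases with theirs. It had 2442 and 5772 counts in sesaminol libraries and 1728 and 2132 counts in controls. The sum of Cav1 and Cav2 was 2424 and 5717 with sesaminol and 1708 and 2104 in controls, 98.7% to 99.3% of the Gm15581 count. Its counts are thus nearly all accounted for by those of Cav1 and Cav2, and they left 18 and 55 counts with sesaminol and 20 and 28 counts in controls. Reads from either strand and from introns may therefore be in these gene counts. Of the 8 genes, 5 had no annotated gene overlapping them.

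Within each library, the balance of the caveolins differed between the groups. Cav3 had 0.178 and 0.174 reads for each Cav1 read with sesaminol, and 0.474 and 0.573 in controls. The log2 ratio was lower by 1.56 in the sesaminol libraries (difference -1.56), which did not overlap the controls (exact permutation test over libraries, two-sided p = 0.333, the smallest that 2 against 2 allows). Per kilobase of exon, Cav3 stood at 0.531 and 0.519 of Cav1 with sesaminol and at 1.41 and 1.71 times Cav1 in controls, so their order on that scale changed. Cav2 had 0.169 and 0.182 reads for each Cav1 read with sesaminol and 0.0702 and 0.0729 in controls, a log2 difference of 1.29 (exact permutation p = 0.333). This last ratio was chosen after its values were seen.

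**Figure D2:**
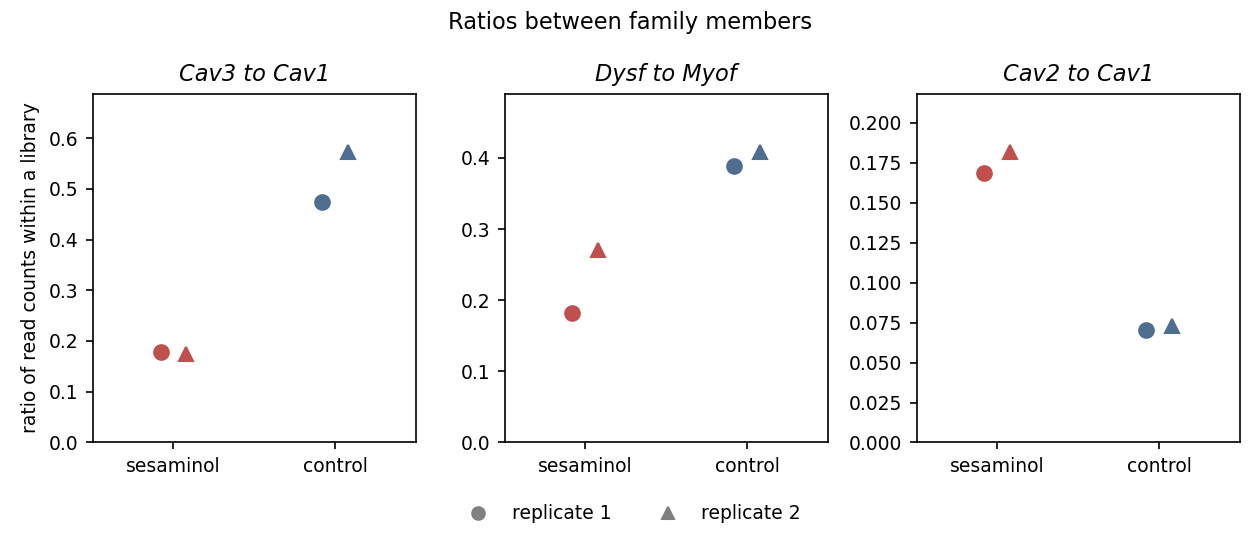
Read count ratios within each library (linear axes from 0), for Cav3 to Cav1, Dysf to Myof and Cav2 to Cav1, with sesaminol libraries in red at the left, controls in blue, circles for replicate 1 and triangles for replicate 2. In each panel the 2 sesaminol points lie on one side of the 2 control points.

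The ferlin of mature fibres fell with sesaminol and that of fusing myoblasts did not pass. Dysf, dysferlin (ENSMUSG00000033788, chromosome 6, 84008590 to 84211060), stood at 38.6 and 48.6 CPM in sesaminol libraries, against 74.98 and 92.97 CPM in controls. The groups did not overlap. It fell to 43.6 ± 7.06 CPM with sesaminol, against 84.0 ± 12.7 CPM in controls, 1.92-fold lower, with a log2 fold change of -0.94 ± 0.19 (SE, edgeR adjusted p = 0.0207). The call was lost without control replicate 2 (-0.79, edgeR adjusted p = 0.235) and with scaling to library size alone (-0.86, edgeR adjusted p = 0.0526). Without sesaminol replicate 2 the log2 fold change was -1.12. The antisense gene Gm15475, which shares 352 exon bases with Dysf, had 10.2% as many counts. With the counts of the 3 genes that overlap Dysf subtracted, an alternative chosen after seeing the data, the log2 fold change was -1.01 (edgeR adjusted p = 0.0159).

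Myof, myoferlin (ENSMUSG00000048612, chromosome 19, 37899036 to 38043577), stood at 212 and 180 CPM with sesaminol and 193 and 227 CPM in controls, and the groups overlapped. Its log2 fold change was -0.10 ± 0.18 (SE, edgeR adjusted p = 0.865), with a 95% interval from -0.52 to 0.31, and it was 0.02 without sesaminol replicate 2. Dysf had 0.182 and 0.270 reads for each Myof read in sesaminol libraries and 0.388 and 0.409 in controls. The groups did not overlap, and the log2 ratio differed by -0.84 (exact permutation p = 0.333, the smallest possible). That difference was -0.56 without sesaminol replicate 1 and -1.13 without sesaminol replicate 2.

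None of the 3 EHD genes passed edgeR's test, and they differed in how well their replicates agreed. Ehd4 was the 1 with an unadjusted p under 0.05, and DESeq2 and limma-voom called 0 of the 3 as well. Ehd4 (ENSMUSG00000027293, chromosome 2, 120089175 to 120154606), an endosomal EHD protein, stood at 217 and 214 CPM with sesaminol and 288 and 298 CPM in controls. The replicates lay close together and the groups did not overlap, at 216 ± 2.01 CPM with sesaminol and 293 ± 6.98 CPM in controls. Its log2 fold change was -0.44 ± 0.17 (SE), with an unadjusted p of 0.0319 and an edgeR adjusted p of 0.218. The 95% interval ran from -0.83 to -0.05. The log2 fold change was -0.49 without sesaminol replicate 1 and -0.42 without sesaminol replicate 2.

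Ehd1 (ENSMUSG00000024772, chromosome 19, 6276725 to 6300096), which acts in endocytic recycling and in mice in myoblast fusion, had 55.2 and 21.5 CPM with sesaminol and 50.4 and 52.1 CPM in controls. Sesaminol replicate 2 alone was low, and sesaminol replicate 1 lay above both controls. The log2 fold change of -0.43 ± 0.35 (SE, edgeR adjusted p = 0.629) thus rested on 1 library. It was 0.11 without sesaminol replicate 2 and -1.29 without sesaminol replicate 1.

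Ehd2 (ENSMUSG00000074364, chromosome 7, 15946958 to 15967567), the EHD protein of the caveola neck, stood at 392 and 287 CPM with sesaminol and 329 and 339 CPM in controls. The control values lay between the sesaminol values, as for Cav1, but here sesaminol replicate 1 was the high one. The log2 fold change was 0.02 ± 0.21 (SE, edgeR adjusted p = 0.979), with a 95% interval from -0.45 to 0.50, and it was 0.24 without sesaminol replicate 2.

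**Figure D3:**
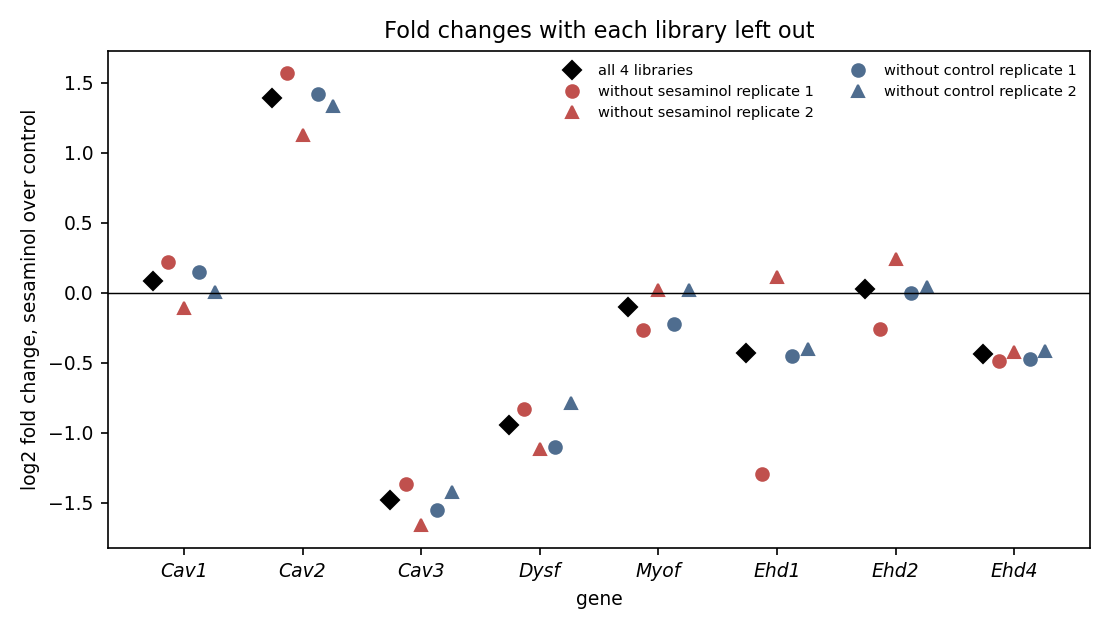
Log2 fold change, sesaminol over control, of each gene with all 4 libraries (black diamonds) and with each library left out in turn (red for a sesaminol and blue for a control library, circles for replicate 1 and triangles for replicate 2). Cav2, Cav3 and Dysf stayed on their side of 0 in the 5 fits shown, Ehd4 lay between -0.49 and -0.42, and Ehd1 ran from -1.29 to 0.11.

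Levels of different genes were set side by side per kilobase of exon (CPM divided by the summed length of all annotated exons, from 1.157 kb for Cav3 to 12.6 kb for Myof). Since intron reads may be in the counts, as the Gm15581 values above leave possible, exon length may not put genes with long introns, such as Dysf, on one scale with the others, and the order is a description on that scale only. In sesaminol libraries the order of mean levels per kilobase was Ehd2 (66.3 ± 14.5), Ehd4 (53.9 ± 0.502), Cav1 (46.3 ± 8.51), Cav3 (24.3 ± 4.09), Myof (15.5 ± 1.78), Ehd1 (10.4 ± 6.42), Cav2 (8.43 ± 1.99) and Dysf (5.24 ± 0.847). In controls it was Ehd4 (73.1 ± 1.74), Cav3 (68.0 ± 4.22), Ehd2 (65.3 ± 1.29), Cav1 (43.8 ± 3.14), Myof (16.7 ± 1.92), Ehd1 (13.8 ± 0.323), Dysf (10.1 ± 1.53) and Cav2 (3.23 ± 0.144). Cav3 ranked 4 with sesaminol and 2 in controls, and Dysf and Cav2 changed places at the low end. Neighbours whose libraries overlapped were Ehd1 with Myof and with Cav2 in the sesaminol libraries, and Cav3 with Ehd2 in controls. With sesaminol the gap between Ehd2 and Ehd4 was smaller than the SD of Ehd2, and that between Ehd4 and Cav1 smaller than the SD of Cav1.

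As a sum, muscle markers were lower with sesaminol, as Cav3 and Dysf were. The summed level of 10 muscle markers was 5996 and 4711 CPM in sesaminol libraries and 9915 and 10235 CPM in controls. All 10 were detected, and 5 fell (Myod1, Myog, Ckm, Actn2 and Myh3), where 3.24% of all genes tested fell. Des, Mymk, Mymx and Chrna1 were lower in both sesaminol libraries but did not pass (edgeR adjusted p = 0.486, 0.0632, 0.126 and 0.385). Myf5 overlapped, with a log2 fold change of 0.22. The part of the muscle markers in the results for Cav3, Dysf and Cav2 was not tested. Markers of adipocytes and endothelial cells, which are rich in Cav1, Cav2 and Ehd2, were measured as well. The 8 adipocyte markers summed to 20.8 and 16.5 CPM with sesaminol and 20.7 and 18.0 CPM in controls. Of them, 4 (Adipoq, Lep, Cidec and Retn) were under 1 CPM in every library and none was at 0 in all. Pparg was the largest part of the sum, at 16.1 and 12.2 CPM with sesaminol and 10.7 and 10.9 CPM in controls. For Fabp4 and Cfd both sesaminol libraries lay below both controls, and Plin1 overlapped. The 6 endothelial markers summed to 9.64 and 15.1 CPM with sesaminol and 13.6 and 10.2 CPM in controls, with Cdh5 under 1 CPM in every library. In these 2 lists edgeR called 0 genes, as did DESeq2 and limma-voom, and 0 had an unadjusted p under 0.05. The 5 fibroblast markers summed to 530.2 and 299 CPM with sesaminol and 435 and 429 CPM in controls, where Dpt fell. Dcn was the largest part of that sum, at 465 and 241 CPM with sesaminol and 305 and 303 CPM in controls. Dcn and Pdgfra overlapped, Lum was lower without passing, and Thy1 was under 1 CPM in every library. The 5 macrophage markers summed to 25.8 and 34.1 CPM with sesaminol and 20.8 and 17.2 CPM in controls, where Cd68 rose (log2 fold change 3.15). Ptprc, Adgre1, Csf1r and Itgam overlapped, so the higher sum does not stand for a rise across these markers.

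Among the caveola partners, the muscle cavin and Nos1 fell, and the general coat genes did not pass. In this list 14 genes were tested (the listed symbol Ptrf, an older name of Cavin1, had no row). Of these, 2 fell and 0 rose, where 3.24% and 2.72% of all genes tested did. The other 12 did not pass, and the median log2 fold change of the list was -0.10 against 0.02 over all genes. Of those not called, Cavin2 and Ehd3 were higher at an unadjusted edgeR p under 0.05 (2 genes), and DESeq2 called 1 gene higher and limma-voom 0. Cavin4, the muscle cavin, stood at 151 and 126 CPM in sesaminol libraries, against 353 and 366 CPM in controls, and fell 2.60-fold (edgeR adjusted p = 0.00389). Nos1, neuronal nitric oxide synthase, which is also anchored at the muscle membrane, had 1.87 and 3.80 CPM with sesaminol and 11.9 and 10.1 CPM in controls and fell 3.78-fold (edgeR adjusted p = 0.0204; without control replicate 1 it was 3.53-fold lower, adjusted p = 0.0835). The groups did not overlap for either.

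The other cavins were abundant. Cavin1, the coat protein that caveolae require, stood at 725 and 590 CPM with sesaminol and 595 and 643 CPM in controls (log2 fold change 0.09 ± 0.22 SE, edgeR adjusted p = 0.912; -0.11 without sesaminol replicate 1). Cavin2 had 218 and 247 CPM with sesaminol and 151 and 158 CPM in controls (0.59 ± 0.17 SE, edgeR adjusted p = 0.0950). Its groups did not overlap. DESeq2 called it (adjusted p = 0.0429) and limma-voom did not (adjusted p = 0.0905). With 1 library left out, its log2 fold change ran from 0.50 to 0.63. Cavin3 had 152 and 78.6 CPM with sesaminol and 140 and 117 CPM in controls, on both sides of the controls (edgeR adjusted p = 0.869). Its log2 fold change was -0.75 without sesaminol replicate 1 and 0.26 without sesaminol replicate 2. Pacsin3, a membrane-bending protein abundant in muscle, had 76.6 and 79.8 CPM with sesaminol and 113 and 122 CPM in controls (-0.59 ± 0.16 SE, edgeR adjusted p = 0.0693). It passed by DESeq2 (adjusted p = 0.0419) and not by limma-voom (adjusted p = 0.0690). With 1 library left out, its log2 fold change ran from -0.66 to -0.53. The list had 1 called gene without control replicate 1, 5 without sesaminol replicate 1 and 6 without sesaminol replicate 2.

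**Figure D4:**
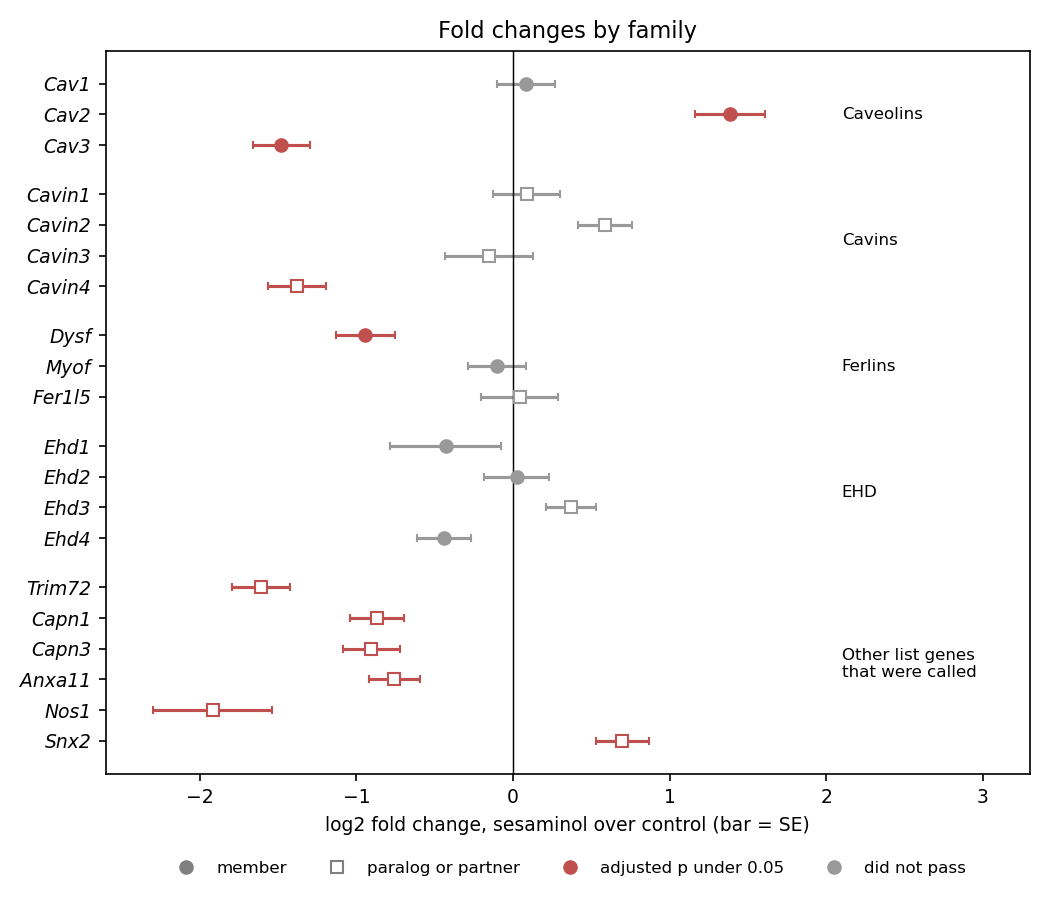
Log2 fold change, sesaminol over control, with its SE, for the 8 genes (filled circles) and for their tested paralogs other than Otof, the cavins and the other list genes that were called (open squares), in red where the edgeR adjusted p was under 0.05. Cav3 and Cavin4 lie at -1.48 and -1.38, while Cav1 and Cavin1 lie at 0.08 and 0.09.

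Among other genes of membrane repair, 4 fell, as dysferlin did. Of 28 genes tested in the list of other ferlins and repair genes, 4 fell and 0 rose. Of all genes tested, 3.24% fell and 2.72% rose. The other 24 of the list did not pass, and its median log2 fold change was 0.18, opposite in sign to the 4 that fell. At an unadjusted edgeR p under 0.05, 4 genes were higher, and DESeq2 and limma-voom called 0 higher. Trim72 (MG53), which gathers vesicles at a membrane tear in muscle, stood at 130.0 and 129 CPM in sesaminol libraries, against 371 and 419 CPM in controls. It fell 3.05-fold (edgeR adjusted p = 0.00189), and its groups did not overlap. Capn1, a calpain, had 100.04 and 83.51 CPM with sesaminol and 165 and 170 CPM in controls and fell 1.83-fold (edgeR adjusted p = 0.0198). Capn3, the muscle calpain, had 28.3 and 22.8 CPM with sesaminol and 51.4 and 44.2 CPM in controls and fell 1.87-fold (edgeR adjusted p = 0.0217). Anxa11, a calcium-dependent annexin, had 44.3 and 41.3 CPM with sesaminol and 75.9 and 68.8 CPM in controls and fell 1.69-fold (edgeR adjusted p = 0.0266).

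These last 3 calls were lost without either control, while their fold changes stayed near those of all 4 libraries. Without control replicate 1 or 2, Capn1 was 1.86-fold and 1.81-fold lower (edgeR adjusted p = 0.164 and 0.227). Capn3 was 1.74-fold and 2.02-fold lower (edgeR adjusted p = 0.218 and 0.0650), and Anxa11 1.62-fold and 1.78-fold lower (edgeR adjusted p = 0.341 and 0.177). The SE of their log2 fold changes was 0.28 to 0.31 in these fits, against 0.16 to 0.18 with all 4 libraries. The list had 1 called gene without either control, 8 without sesaminol replicate 1 and 13 without sesaminol replicate 2, of which 8 rose. Among the other ferlins, Fer1l5 stood at 9.91 and 13.2 CPM with sesaminol and 11.02 and 11.47 CPM in controls (edgeR adjusted p = 0.967; log2 fold change 0.04, and -0.18 without sesaminol replicate 2). Otof, otoferlin, had 0 and 24 reads with sesaminol and 8 and 2 reads in controls, too few for a direction. Fer1l4 and Fer1l6 were not tested and stood below 1 CPM in every library.

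In the list of EHD relatives, binding partners and recycling cargoes, 1 of 22 genes rose, 0 fell and 21 did not pass. Among all genes tested, 2.72% rose and 3.24% fell. The median log2 fold change of the list was 0.17. At an unadjusted edgeR p under 0.05, 1 gene was lower, and DESeq2 and limma-voom called 0 lower. Snx2, a sorting nexin of endosomes, stood at 53.8 and 52.1 CPM in sesaminol libraries, against 35.6 and 29.8 CPM in controls, and rose 1.62-fold (edgeR adjusted p = 0.0454). That call was lost with RLE or upper quartile scaling (edgeR adjusted p = 0.0514 and 0.0579), with limma-voom (adjusted p = 0.0510) and without control replicate 1 or 2 (1.77-fold and 1.48-fold higher, edgeR adjusted p = 0.220 and 0.626). Snap29, a fusion protein that binds EHD1, had 39.4 and 35.3 CPM with sesaminol and 24.0 and 24.1 CPM in controls (edgeR adjusted p = 0.0640). Rab11a, the GTPase of recycling endosomes, had 87.8 and 81.7 CPM with sesaminol and 61.0 and 53.6 CPM in controls (edgeR adjusted p = 0.0877). Its effector Rab11fip5 had 133 and 126 CPM with sesaminol and 91.4 and 89.2 CPM in controls (edgeR adjusted p = 0.104). These 3 missed the threshold. Their groups did not overlap, as for 47.0% of all genes tested. With 1 library left out, the log2 fold change of Snap29 ran from 0.51 to 0.72. That of Rab11a ran from 0.47 to 0.65 and that of Rab11fip5 from 0.44 to 0.57. The list had 0 called genes without either control, 8 without sesaminol replicate 1 and 4 without sesaminol replicate 2. The paralog Ehd3 had 41.9 and 41.0 CPM with sesaminol and 31.8 and 32.3 CPM in controls (log2 fold change 0.37 ± 0.16 SE, edgeR adjusted p = 0.260).

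Among 10722 protein-coding genes that averaged 5 CPM or more, those most like each member over the 4 libraries were found by distance between log2 CPM values centred on their mean. For Cav3 they were Wnt10a, Dpep1 and Pmepa1 (distances 0.10, 0.12 and 0.14 on the log2 scale). For Dysf they included Tead4, a transcription factor, and Klhl40, a thin filament gene (0.09 and 0.10). For Cav1 they were Dlat, Rpl9 and Akirin2 (0.02, 0.02 and 0.03), and for Myof Clic4, Ammecr1l and Trafd1 (0.02, 0.03 and 0.03). With 4 libraries in 2 groups this likeness is a description of these samples only. Cav3 and Dysf lay 0.56 apart by the same measure, and Myof and Ehd2, the closest pair of members, 0.23.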

How the data were processed

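Poly(A)-selected RNA of C2C12 cells was sequenced in 2 sesaminol and 2 control libraries. The authors deposited raw counts of reads, 1 whole number per gene and library. Per the submitters' processing notes, the tools included fastp, Picard, featureCounts and edgeR and the build was GRCm38; the aligner, strand setting and annotation release are not named in any source used here. Positions and exon lengths come from GENCODE release M21 (GRCm38), in which 52489 of 52636 identifiers were found. Of the low counts (1 to 12), 75.8% to 79.6% were even numbers, depending on the library, so both reads of a pair may have been counted; halved counts were an alternative.

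The filter was filterByExpr with a minimum count of 10 and a minimum total of 15, and genes that passed were scaled by TMM and compared with edgeR 4.0.16 (R 4.3.3; glmQLFit and glmQLFTest, two-sided, no covariates), with a threshold of 0.05. SEs are log2 fold changes over the root of the F statistic, and 95% intervals use the test's t quantile. Ratios were compared by exact permutation. The alternatives were other scalings and filters, DESeq2 1.42.0, limma-voom (limma 3.58.1), a replicate block and each library left out in turn. No libraries were duplicates (chi-square per degree of freedom 6.95 between controls, 44.8 between sesaminol libraries). Between a control and a sesaminol library it ran from 46.9 to 80.8, so the sesaminol libraries differed from each other nearly as much as the closest such pair.

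The members, lists and tests were chosen with earlier results of these data known. Named genes are the members, the 4 lowest adjusted p in each list, the paralogs, the 3 genes most like Cav1, Cav3, Dysf and Myof (1 of them is not reported here), and called marker genes; the genes overlapping a member were named after their values were seen. Figures were drawn with matplotlib 3.10.9.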

Additional observations from a re-analysis of the deposited data

How the results depend on the processing

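Over all genes, 1131 were called. The count was 1913 with no filter on low counts, 428 at an adjusted p under 0.01, and 452 to 4642 with 1 library left out. Of the 8 members, 3 were called, and 2 to 5 with 1 library left out. The caveola partner list had 2 called genes, 4 with DESeq2 and 1 to 6 with 1 library left out. The membrane repair list had 4, and 1 to 13 with 1 library left out. The EHD partner list had 1, but 0 with RLE or upper quartile scaling or limma-voom, 3 with no filter on low counts and 0 to 8 with 1 library left out. A group left with 1 library takes its spread from the other group.

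The call of Dysf was lost with library size alone (log2 fold change -0.86). With 1 library left out, the log2 fold change ran from -1.12 to -0.79 for Dysf, from -1.29 to 0.11 for Ehd1, from -0.49 to -0.42 for Ehd4, from -0.11 to 0.22 for Cav1, from -0.27 to 0.02 for Myof (0.016 without control replicate 2 or sesaminol replicate 2) and from -0.26 to 0.24 for Ehd2 (-0.0037 without control replicate 1). Ehd2 was also at -0.019 with upper quartile scaling. Among other genes, the direction turned for Cavin1 (-0.11 to 0.23 with 1 library left out), Cavin3 (-0.75 to 0.26), Fer1l5 (-0.18 to 0.18) and Otof, which had few reads (0.13 in the reported fit; -0.27 with the replicate block, -0.74 to 1.64 with 1 library left out, -0.028 with DESeq2 and -0.60 with limma-voom). The cause of these changes was not tested.

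The labels give both groups the replicate numbers 1 and 2, with nothing that pairs them. Deviations from the group means correlated at -0.05 between libraries with the same number, across 18998 genes. With the replicate number as a block, 1875 genes were called over all, 3 of the members and 4 of the EHD partner list, and the log2 fold changes of Cav3, Cav2 and Dysf were -1.49, 1.37 and -0.95. The depth of the smallest library set the limit for low genes: 3 counts correspond to 0.298 CPM in control replicate 1 and 0.112 CPM in sesaminol replicate 2.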
